A study of Arabidopsis thaliana with 8 samples.

Results

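The AtNC features are long intergenic non-coding RNA (lincRNA) predictions that the deposited table describes as found in tiling-array data, numbered by chromosome as At1NC to At4NC. Those described here are the 87 AtNC features with at least 40 counts summed over 8 libraries, out of 4735 AtNC features and 40246 features in the table. Chromosome 1 held 39 of them (2.27% of its AtNC features), chromosome 2 held 22 (2.04%), chromosome 3 held 19 (1.60%) and chromosome 4 held 7 (0.93%). AtNC features of chromosome 5 were not analysed here. Of the other AtNC features, 584 had 1 to 39 counts and 4064 had none. At the threshold, At1NC006340 stood just inside with 40 counts, and At1NC040230 and At2NC052000 just outside with 39 each.

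The libraries came from roots of 7-day-old Arabidopsis thaliana seedlings, all of the Col-0 background, either wild type or bzr1-D. In bzr1-D a dominant mutation keeps BZR1 active. BZR1 is a transcription factor that acts at the end of brassinosteroid signalling. At day 6 the seedlings were placed for 24 h on adequate (0.625 mM) or low (1 µM) inorganic phosphate (Pi). Each of the 4 groups, wild type on adequate Pi, wild type on low Pi, bzr1-D on adequate Pi and bzr1-D on low Pi, had 2 libraries of polyadenylated RNA, labelled as biological replicates with the numbers Exp 1 and Exp 2. How many seedlings went into a library was not given in the sources used here.

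Long non-coding RNAs are transcripts, usually capped and often polyadenylated, that are not known to be translated into a protein. In plants some act as decoys for microRNAs, some recruit chromatin regulators, and some are antisense to a protein-coding gene. In roots the best-known examples are IPS1 and AT4, RNAs of Pi starvation that bind the microRNA miR399 without being cut and so protect its target PHO2.

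Total counts per library ranged from 15947895 to 22150569. With levels given as CPM (counts per 1000000 counts), a count of 0 still allowed 0.135 to 0.186 CPM (3 counts, counting error only). The 8 root markers, genes such as SCR, CASP1 and PYK10, summed to between 7320 and 9725 CPM. Most of that sum was PYK10, which alone had 6960 to 9366 CPM. The mean was 167 CPM for CASP1 and 58.8 CPM for SCR. The 8 shoot markers, photosynthesis genes, summed to between 46.8 and 91.1 CPM, and 6 to 8 of them had counts in a library. In whole roots, fewer cells that express a transcript and less of it per cell cannot be told apart.

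Sequences of 4 of the members called between genotypes are shown, read from the RefSeq genome assembly TAIR10.1. At1NC090650 was called only in the fit with a replicate block, described below. Capitals mark the longest reading frame from an ATG on the strand shown. Of At1NC034500 the part outside the neighbouring protein-coding gene is shown, and its longest frame, of 4 codons, lies outside that part.
At1NC034500 (chr1:9589675-9589806, minus strand): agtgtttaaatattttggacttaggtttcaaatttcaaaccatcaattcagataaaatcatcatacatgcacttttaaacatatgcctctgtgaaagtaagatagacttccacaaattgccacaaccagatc
At1NC021200 (chr1:5975332-5975631, minus strand, the first 300 of 420 bases): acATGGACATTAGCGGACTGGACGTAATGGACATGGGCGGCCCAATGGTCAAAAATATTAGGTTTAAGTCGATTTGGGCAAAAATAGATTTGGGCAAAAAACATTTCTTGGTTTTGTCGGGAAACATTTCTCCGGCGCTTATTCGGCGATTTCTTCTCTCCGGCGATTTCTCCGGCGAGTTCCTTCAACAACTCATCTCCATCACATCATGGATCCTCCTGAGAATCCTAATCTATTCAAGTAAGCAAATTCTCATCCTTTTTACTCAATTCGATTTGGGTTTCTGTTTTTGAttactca
At1NC046690 (chr1:12712840-12713139, plus strand, the last 300 of 595 bases): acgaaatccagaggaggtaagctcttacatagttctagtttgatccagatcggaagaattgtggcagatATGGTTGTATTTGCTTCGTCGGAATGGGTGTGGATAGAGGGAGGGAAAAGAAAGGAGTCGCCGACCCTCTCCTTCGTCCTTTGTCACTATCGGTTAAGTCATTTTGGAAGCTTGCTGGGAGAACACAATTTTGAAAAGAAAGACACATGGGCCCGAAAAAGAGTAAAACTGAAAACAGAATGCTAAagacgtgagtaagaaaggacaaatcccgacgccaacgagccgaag
At1NC090650 (chr1:24345647-24345921, plus strand): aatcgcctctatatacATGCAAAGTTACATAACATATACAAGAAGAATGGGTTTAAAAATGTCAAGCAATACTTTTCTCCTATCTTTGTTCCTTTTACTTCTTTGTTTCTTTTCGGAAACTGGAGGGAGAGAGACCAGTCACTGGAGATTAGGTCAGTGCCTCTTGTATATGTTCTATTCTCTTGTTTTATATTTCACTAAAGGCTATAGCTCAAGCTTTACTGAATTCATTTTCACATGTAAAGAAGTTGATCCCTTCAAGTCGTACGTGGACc

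The longest frame was 96 codons in At1NC021200, 61 in At1NC046690 and 86 in At1NC090650, where it ran to the feature's end without a stop. Over all 87 members the longest frame had a median of 36 codons and ranged from 2 to 107. Only 61 members had a strand from a RefSeq non-coding locus with the same ends. The others were read on the plus strand by assumption, among them At3NC089930 with the lowest value, so median and range mix known and assumed strands. The members were 201 to 1417 bases long, with a median of 311, and their median GC content was 38.2%. For At1NC046690, RefSeq gives no locus and so no strand, and the plus strand is shown.

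RefSeq held a non-coding locus with the same end for 61 of the 87 members, 33 on the plus and 28 on the minus strand. In all 61 the RefSeq start lay 1 base after the start in the table, so positions are given here from the second base of the table's span. Although the table calls them intergenic, 63 of the 87 members overlapped a protein-coding gene of RefSeq. The overlap was with an untranslated exon for 48, a coding exon for 14 and an intron for 1. A further 23 met only a non-coding locus, and At1NC046690 met none. Such overlap was found in 72.4% of the members, in 29.6% of the AtNC features with 1 to 39 counts and in 5.09% of those with none. Of the 38 members with both a strand of their own and a protein-coding overlap, 36 lay opposite to the gene, At1NC034500 lay on the same strand, and 1 met genes on both strands. The strand setting of the counting was not given in the sources used here, so reads of a member and of the gene across from it cannot be told apart.

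Mapping was rarely ambiguous. In 79 of the 87 members (90.8%) every stretch of 50 bases, the read length, occurred once in the genome. The share was 91.8% among AtNC features with 1 to 39 counts and 91.7% among those with none. At2NC000010, beside the 18S ribosomal RNA gene AT2G01010 at the tip of chromosome 2, had 30.2% unique stretches, so its counts are uncertain. The lowest share, 5.77%, was in At2NC013970, a tested member whose counts are uncertain too. A total of 8 members overlapped another feature of the table, among them At1NC046690, whose overlapping neighbour At1NC046700 had no count in any library.

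The members took up a small and even share of each library, between 91.9 and 103 CPM, and 84 to 86 of the 87 had a count in each library. Their level was low. Per kb of span, the mean level over the libraries ran from 0.385 to 27.7 CPM per kb with a median of 1.60. The median of the 16880 protein-coding features with at least 40 counts was 8.03 CPM per kb, and the median member stood above 16.2% of them. Annotated pseudogenes passing the same count minimum had a median of 1.49 CPM per kb, and other annotated non-coding RNA genes (the class other_RNA) 2.37 CPM per kb. The features compared differ in length, with medians of 311 bases for the members, 2122 for protein-coding, 1434 for pseudogenes and 1049 for other_RNA. A minimum of 40 counts is thus a higher minimum per kb for the members, which raises their median and rank in these comparisons.

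**Figure D1:**
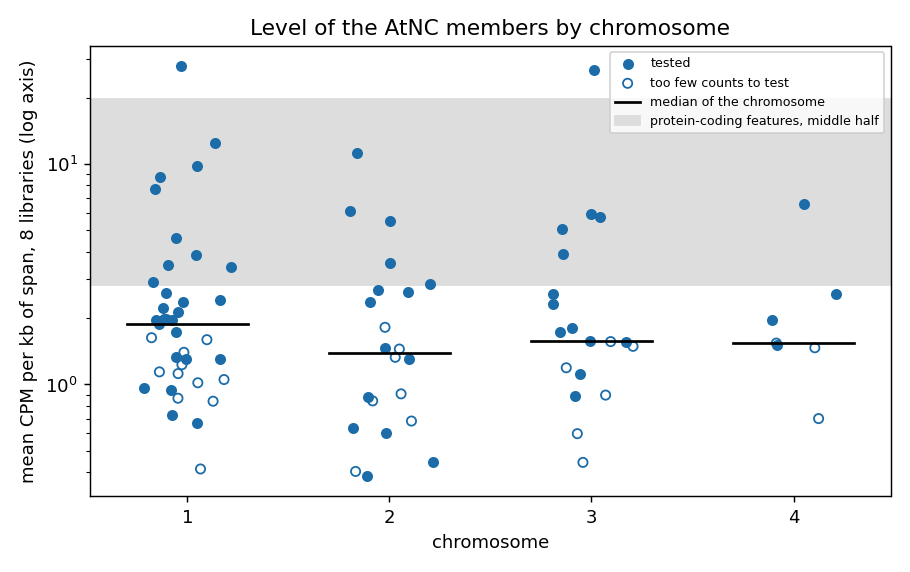
Mean level of each of the 87 members over 8 libraries, in CPM per kb of span on a log axis, by chromosome. Filled points had enough counts to be tested, open points did not, bars are chromosome medians and the grey band holds the middle 50% of protein-coding features with at least 40 counts. The medians of the 4 chromosomes lie between 1.39 and 1.88 CPM per kb, below the band.

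By chromosome the median member level was 1.88 CPM per kb on chromosome 1, 1.39 on chromosome 2, 1.58 on chromosome 3 and 1.54 on chromosome 4. Chromosome medians thus lay far closer together than the members within a chromosome. The 5 highest members per kb were At1NC034500 at 27.7, At3NC022440 at 26.8, At1NC025750 at 12.4, At2NC069120 at 11.3 and At1NC092960 at 9.83 CPM per kb.

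At3NC022440 (chr3:6227772-6228039, minus strand) had the highest mean, 7.20 CPM. It lies opposite a coding exon of AT3G18170, whose own level was 32.4 CPM per kb. The highest member on chromosome 4, At4NC046820 (chr4:11245256-11245823), held between 3.27 and 4.21 CPM in the 8 libraries. At1NC082000 (chr1:21998215-21999630), which lies within the RefSeq span of AT1G59780 and meets an untranslated exon there, had a mean of 4.93 CPM and at most 5.62 CPM. At1NC025160 (chr1:7093113-7093593) held 3.25 to 4.81 CPM, and At1NC025750 (chr1:7248291-7248588), opposite an untranslated exon of the vacuolar sugar transporter gene TMT1, held 2.43 to 4.97 CPM. In these 4 members the values of the 2 genotypes overlapped. At2NC069120 (chr2:17130013-17130359) held 2.60 to 5.72 CPM, and At3NC074580 (chr3:18369342-18369932), which meets no protein-coding gene, held 1.61 to 3.09 CPM.

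For 53 pairs of a member and an overlapping protein-coding locus in the table, the member's level per kb was a median of 0.508 times that of the locus. The ratio ran from 0.0137 to 14.2, under 0.1 in 7 pairs and over 1 in 15. Among 36 pairs with tests for both, the genotype log2 fold changes of member and locus had a Pearson r of 0.96 across pairs. That value rested on At1NC034500, and r was 0.47 over the other 35 pairs. The pairs share libraries, some share a member, and reads of overlapping features may be split between them.

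Of the 87 members, 60 had enough counts to be tested, 28 on chromosome 1, 15 on chromosome 2, 13 on chromosome 3 and 4 on chromosome 4. The other 27 could not be tested. A feature was called where its adjusted p was under 0.05 over all 20262 features tested, by the quasi-likelihood test of edgeR with Benjamini-Hochberg adjustment. The same fit with the Exp number as a block for libraries of the same experiment is given where it changed a call. All fold changes are on the log2 scale.

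The first question was whether 24 h on low Pi changed the members. In wild type 0 of the 60 were called, against a background of 0% of all features. Of the members 3 had an unadjusted p under 0.05, against 1.63% of all features. In bzr1-D 0 members were called against 0%, and 3 had an unadjusted p under 0.05 against 1.25%. Averaged over the genotypes 0 were called against 0%, and 3 had an unadjusted p under 0.05 against 2.18%. With the block the count of members stayed at 0 in each, while 0.0839%, 0.0197% and 0.148% of all features were called in wild type, in bzr1-D and averaged. DESeq2 and limma-voom also called 0 members.

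The median log2 fold change of the 60 members was 0.00 in wild type and -0.07 in bzr1-D, where the medians over all features were -0.0026 and 0.0034. The members' estimates were less precise, with a median standard error of 0.42 in wild type against 0.19 over all features. Of 56 members with more than 3 counts in each genotype, 53 changed by less than 1 on the log2 scale in wild type and 53 in bzr1-D. By chromosome the median in wild type was 0.00, 0.03, -0.11 and 0.08 on chromosomes 1 to 4, and in bzr1-D it was -0.08, -0.43, 0.12 and -0.12.

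**Figure D2:**
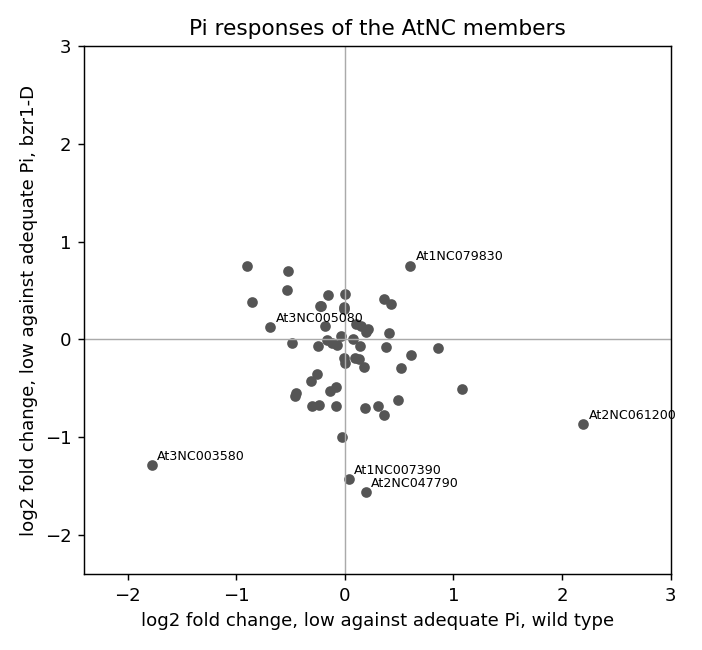
Log2 fold change at low against adequate Pi in wild type (x axis) and in bzr1-D (y axis) for the 56 tested members with more than 3 counts in each genotype. Most points lie within 1 of 0 on both axes, and the labelled ones have the smallest unadjusted p-values. None was called.

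The smallest unadjusted p in wild type belonged to At2NC061200 (chr2:15066113-15066962), opposite an untranslated exon of the calcium-dependent protein kinase gene CPK25. Its level in wild type was 0.203 and 0.045 CPM on adequate Pi and 0.605 and 0.540 CPM on low Pi. In bzr1-D it was 0.364 and 0.435 CPM on adequate Pi and 0.204 and 0.226 CPM on low Pi. The values did not overlap between Pi supplies in either genotype and were ordered in opposite ways, all on 11 counts or fewer. Only the wild type low Pi libraries of At2NC061200 reached 10 counts. This member thus had enough counts to be tested only through the group where it was highest. Its log2 fold change was 2.20 ± 0.63 (SE) in wild type with an adjusted p of 1 by edgeR, and the difference between the genotypes' responses was -3.06 ± 0.88 with an adjusted p of 1.00.

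At2NC047790 (chr2:11424700-11425152), which lies within the RefSeq span of AT2G26790 and meets an untranslated exon there, had the smallest unadjusted p in bzr1-D. Its level there was 1.196 and 0.870 CPM on adequate Pi and 0.409 and 0.283 CPM on low Pi. In wild type it was 0.608 and 0.584 CPM on adequate Pi and 0.771 and 0.594 CPM on low Pi. The bzr1-D values did not overlap between Pi supplies. The log2 fold change in bzr1-D was -1.56 ± 0.41 with an adjusted p of 1 by edgeR.

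At1NC079830 (chr1:21376426-21376913), which meets only a non-coding locus, had the smallest unadjusted p averaged over the genotypes. Its level on adequate Pi was 1.87 and 1.71 CPM in wild type and 2.08 and 1.24 CPM in bzr1-D. On low Pi it was 2.42 and 3.03 CPM in wild type and 3.11 and 2.54 CPM in bzr1-D. All 4 low Pi libraries stood above all 4 adequate Pi libraries. The averaged log2 fold change was 0.68 ± 0.21, with an unadjusted p of 0.014 and an adjusted p of 1.00 by edgeR. Within Exp 1 the value was 0.46, and within Exp 2 it was 0.88.

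The others named by the size of their p showed similar or lower levels. At3NC005080 (chr3:1397170-1397440), opposite an untranslated exon of the sodium/proton exchanger gene NHX2, had 1.92 and 2.11 CPM in wild type on adequate Pi and 1.21 and 1.30 CPM on low Pi. At3NC003580 (chr3:1004758-1005154), opposite an untranslated exon of the APS kinase gene APK3, had 0.861 and 1.03 CPM in wild type on adequate Pi and 0.165 and 0.378 CPM on low Pi. The wild type values of both did not overlap between Pi supplies. At1NC007390 (chr1:2055991-2056304) had 0.936 and 1.12 CPM in bzr1-D on adequate Pi and 0.306 and 0.452 CPM on low Pi. None of the 3 was called. The members named by the size of their p were picked from these same values, so a lack of overlap between Pi supplies is not separate evidence.

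The difference between the 2 genotypes' responses to low Pi was called for 0 of the 60 members and for 0% of all features, and with the block for 0 members and 0%. An unadjusted p under 0.05 was found for 3 members, against 0.785% of all features. Besides At2NC061200 and At2NC047790 this was At3NC058960 (chr3:14723982-14724237), opposite an untranslated exon of the proton pump gene HA8. It had 0.658 and 0.674 CPM in wild type on adequate Pi, 0.330 and 0.378 CPM on low Pi, and in bzr1-D 0.312 and 0.249 CPM on adequate Pi and 0.613 and 0.339 CPM on low Pi.

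Of 9 known lncRNA genes listed for comparison, the 2 whose names could be matched were IPS1 and AT4. IPS1 had 1 and 8 counts in wild type on adequate Pi and 13 and 117 on low Pi, and in bzr1-D 16 and 4 on adequate Pi and 334 and 242 on low Pi. AT4 had 24.1 and 26.9 CPM in wild type on adequate Pi and 69.2 and 298 CPM on low Pi, and in bzr1-D 85.1 and 64.1 CPM on adequate Pi and 270 and 322 CPM on low Pi. Within each genotype both genes were higher in each low Pi library than in each adequate Pi library. Averaged over genotypes the log2 fold change was 4.39 ± 0.75 for IPS1 and 2.42 ± 0.41 for AT4, with an adjusted p of 0.44 for each by edgeR, so these too were not called. Replicates of these genes spread widely on low Pi in wild type.

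The second question was how bzr1-D roots differed from wild type. On adequate Pi 4 of the 60 members were called, 3 higher in bzr1-D and 1 lower, against 1.99% of all features, 0.706% higher and 1.29% lower. On low Pi 3 were called, 2 higher and 1 lower, against 2.12%, 0.78% higher and 1.34% lower. Averaged over Pi supplies 6 were called, 3 higher and 3 lower, against 5.37%, 2.06% higher and 3.31% lower. With the block the calls were 7 on adequate Pi, 8 on low Pi and 8 averaged, against 7.4%, 9% and 15.3% of all features. That is 10% of the members without the block and 13.3% with it in the averaged comparison, above the background in the first fit and below it in the second. These shares depend in part on which members could be tested. At1NC046690, with 57 counts and none in wild type, had enough counts through its bzr1-D libraries alone. So did At1NC021200, with none in wild type, and At1NC034500, with 1 there. At2NC028310, with none in bzr1-D, had enough through its wild type libraries alone. All 4 were among the 6 called in the averaged comparison, so the members' shares are not separate evidence of a genotype difference. At1NC104770, with 61 counts spread over both genotypes and at most 10 in a library, could not be tested. The median log2 fold change of the members was -0.08 averaged over Pi, against 0.0096 over all features.

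**Figure D3:**
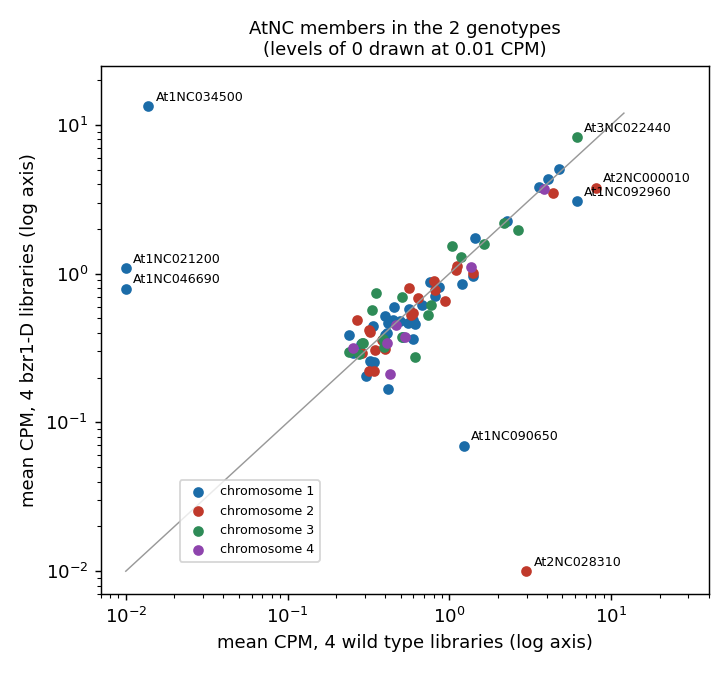
Mean level of each of the 87 members over the 4 wild type libraries (x axis) and the 4 bzr1-D libraries (y axis), in CPM on log axes, coloured by chromosome, with levels of 0 drawn at 0.01 CPM. The grey line marks equal levels, and the 8 members called in any genotype comparison are labelled. Of these, 3 lie at the left edge and 1 at the bottom edge.

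**Figure D4:**
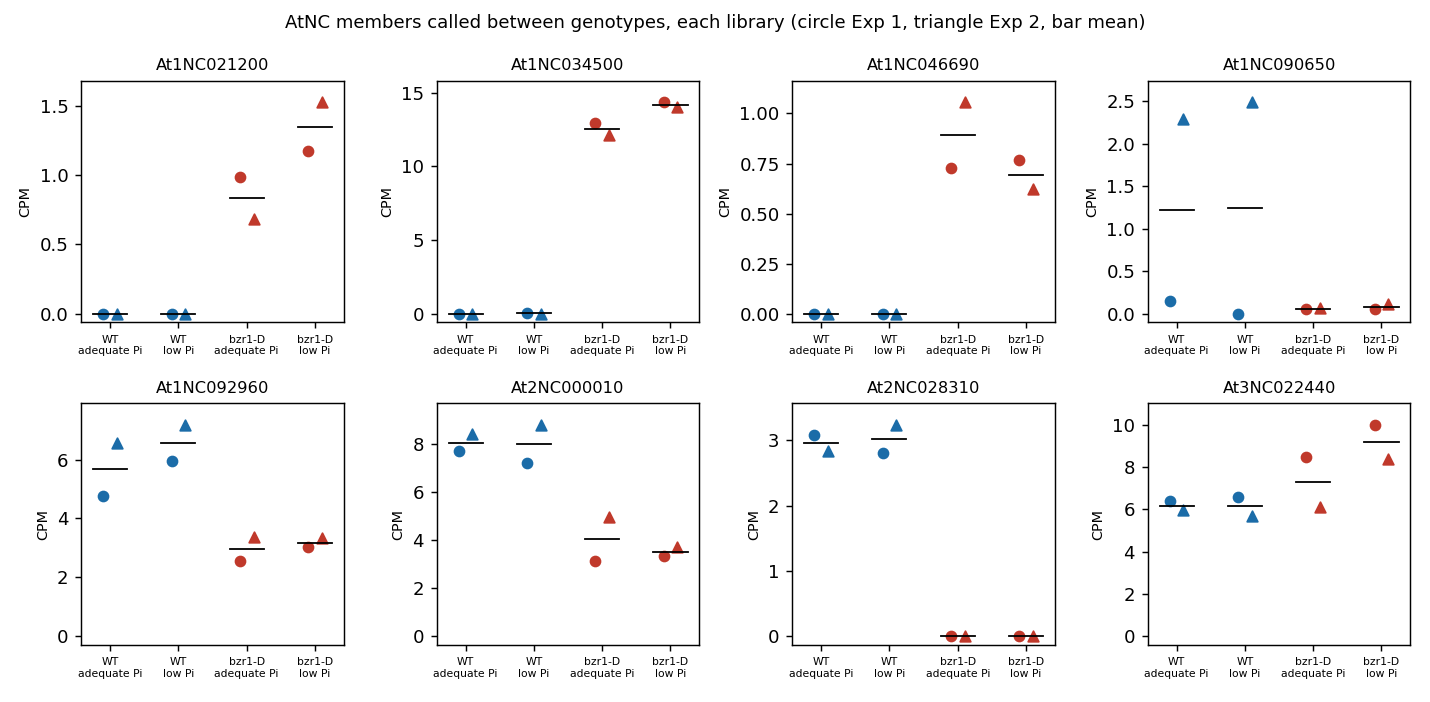
Level in CPM of the 8 members called between genotypes, in each library. Blue is wild type, red is bzr1-D, circles are Exp 1, triangles are Exp 2 and bars are means of 2 libraries. At1NC021200, At1NC034500 and At1NC046690 were at or near 0 in wild type and At2NC028310 was at 0 in bzr1-D.

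At1NC034500 (chr1:9589675-9589914, minus strand) was nearly absent from wild type and the member with the highest CPM in bzr1-D. Its counts in wild type were 0 and 0 on adequate Pi and 1 and 0 on low Pi. In bzr1-D its level was 12.9 and 12.1 CPM on adequate Pi and 14.3 and 14.0 CPM on low Pi, from 195 to 281 counts. The groups were far apart in every library. On adequate Pi it was at least 88.0-fold higher in bzr1-D, taking 3 counts in each wild type library as the floor. On low Pi the ratio was 520, with a 95% exact counting interval of 93.0 to 20594. Its adjusted p was 0.00023 on adequate Pi and 0.00026 on low Pi by edgeR.

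The protein-coding neighbour on the same strand, AT1G27580, lies 18 bases beyond the member in the table. In RefSeq the span of AT1G27580 overlaps the member by 108 bases and meets it with an untranslated exon. AT1G27580 had 1 to 4 counts in each wild type library and 71 to 98 in each bzr1-D library, with an averaged log2 fold change of 5.28 ± 0.27 (adjusted p = 5.9e-05 by edgeR). On the other side the nearest gene of the table, AT1G27570, ends 7297 bases away. It had 0 to 4 counts in wild type and 226 to 308 in bzr1-D. The member, AT1G27580 and AT1G27570 were thus high in bzr1-D and near 0 in wild type. RefSeq also holds AT1G27595, 2173 bases from the member, whose level was not examined. Per kb the member stood 13.9 times above AT1G27580.

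At1NC021200 (chr1:5975212-5975631, minus strand), which meets only a non-coding locus of RefSeq, had no count in any wild type library. In bzr1-D it had 0.988 and 0.683 CPM on adequate Pi and 1.17 and 1.53 CPM on low Pi, from 11 to 27 counts. It was at least 5.94-fold higher on adequate Pi and at least 8.20-fold higher on low Pi, with adjusted p-values of 0.036 and 0.023 by edgeR. The call on adequate Pi was lost without any of 6 libraries (adjusted p 0.0763 to 0.199), and so was that on low Pi (0.0634 to 0.11). Of its neighbours, AT1G17410 did not show the pattern, with 7.93 CPM in bzr1-D and 8.19 CPM in wild type on adequate Pi. AT1G17420 (LOX3, a lipoxygenase gene of jasmonate synthesis) had 0 to 38 counts per library and was too low to test.

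At1NC046690 (chr1:12712545-12713139) also had no count in wild type. In bzr1-D it had 0.728 and 1.06 CPM on adequate Pi and 0.766 and 0.622 CPM on low Pi, from 11 to 17 counts. It was at least 6.14-fold higher on adequate Pi and at least 4.26-fold higher on low Pi. Its adjusted p was 0.036 on adequate Pi, 0.052 on low Pi and 0.0070 averaged by edgeR, and 0.0087 on low Pi with the block. The call on adequate Pi was lost without any of 6 libraries (adjusted p 0.0789 to 0.208). The pseudogenes on each side, AT1G34680 and AT1G34690, had 1 and 3 counts in all 8 libraries together.

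At2NC028310 on chromosome 2 showed the reverse. It had 3.09 and 2.83 CPM in wild type on adequate Pi and 2.81 and 3.24 CPM on low Pi, from 51 to 63 counts. In bzr1-D it had no count in any of the 4 libraries. It was at least 17.4-fold lower in bzr1-D on adequate Pi and at least 18.8-fold lower on low Pi, with adjusted p-values of 0.0041 and 0.0038 by edgeR. It meets only a non-coding locus of RefSeq.

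At2NC000010 (chr2:2594-3559) and At1NC092960 (chr1:24912512-24912977, plus strand) were lower in bzr1-D at both Pi supplies. At2NC000010 had 7.70 and 8.41 CPM in wild type on adequate Pi and 7.21 and 8.81 CPM on low Pi, against 3.12 and 4.97 CPM and 3.32 and 3.73 CPM in bzr1-D. The genotypes did not overlap. Its averaged log2 fold change was -1.09 ± 0.17 (adjusted p = 0.012 by edgeR). The 2 experiments taken alone gave -1.18 (Exp 1) and -0.98 (Exp 2). Without the second wild type low Pi library its adjusted p was 0.0531. It overlaps the microRNA locus MIR5642b and an untranslated exon of AT2G01008, and its mapping is uncertain as given above.

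At1NC092960 had 4.76 and 6.56 CPM in wild type on adequate Pi and 5.94 and 7.19 CPM on low Pi, against 2.55 and 3.36 CPM and 3.01 and 3.33 CPM in bzr1-D. All bzr1-D libraries were below all wild type libraries. The averaged log2 fold change was -0.997 ± 0.17 (adjusted p = 0.017 by edgeR), -0.92 within Exp 1 and -1.02 within Exp 2, and its adjusted p lay between 0.0553 and 0.0763 without any of 4 libraries. It lies 224 bases from MIR157a, a locus of the miR157 family that targets SPL transcription factor genes. MIR157a itself had 1 to 5 counts per library.

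At1NC090650 (chr1:24345647-24345921, plus strand) was called only with the block. Its counts in wild type were 3 and 51 on adequate Pi and 0 and 46 on low Pi, where the first of each pair is Exp 1. In bzr1-D they were 1 and 1 on adequate Pi and 1 and 2 on low Pi. The wild type Exp 1 libraries thus overlapped the bzr1-D libraries. Taken alone, Exp 1 gave an averaged log2 fold change of -0.07 and Exp 2 gave -3.70. The adjusted p was 0.22 without the block and 0.0015 with it by edgeR.

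At3NC022440 was called only with the block too. It had 6.38 and 5.98 CPM in wild type on adequate Pi and 6.61 and 5.67 CPM on low Pi, against 8.48 and 6.09 CPM and 10.01 and 8.36 CPM in bzr1-D. On adequate Pi the genotypes overlapped, and on low Pi they did not. The averaged log2 fold change was 0.41 ± 0.15 (adjusted p = 0.21 by edgeR, 0.025 with the block). AT3G18170, a protein-coding gene on the opposite strand with which it overlaps, had an averaged log2 fold change of 0.36 ± 0.14 (adjusted p = 0.27, 0.0045 with the block).

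By chromosome the averaged comparison called 4 members on chromosome 1, 2 on chromosome 2 and 0 on chromosomes 3 and 4. Over all features, 7.30% were called on chromosome 1, 1.27% on chromosome 2, 4.01% on chromosome 3 and 1.70% on chromosome 4. The median log2 fold change of the members was 0.01, -0.11, 0.01 and -0.19 on chromosomes 1 to 4. With the block the calls were 5, 2, 1 and 0, and the shares of all features called rose to 18.3%, 7.91%, 13.6% and 8.74%.

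**Figure D5:**
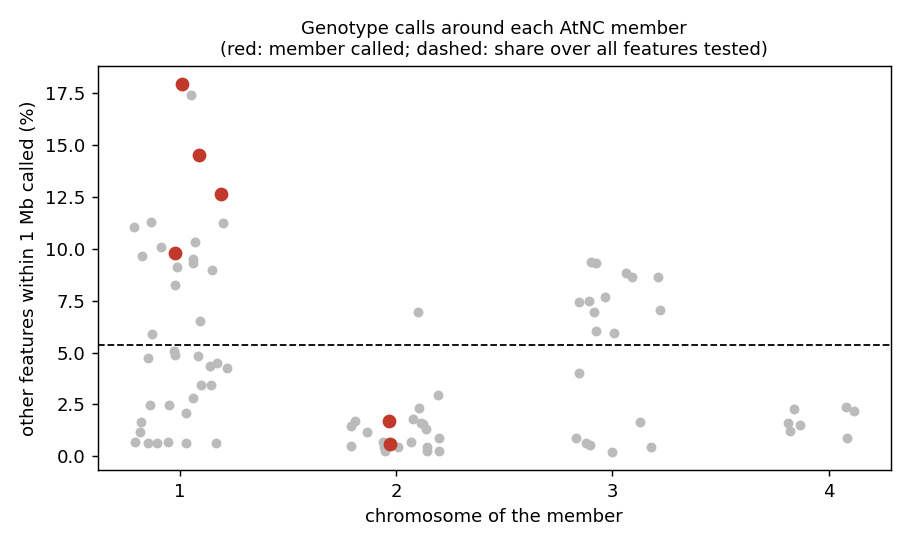
Share of other tested features within 1 Mb on each side that were called between genotypes (averaged over Pi supplies), for each of the 87 members by chromosome. Red points are the 6 members called in the same comparison, grey points the rest, and the dashed line is the share over all features, 5.37%. The 4 called members of chromosome 1 lie above the line and the 2 of chromosome 2 below it.

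The genotype calls of other features were unevenly spread along the chromosomes. Within 1 Mb on each side, 17.9% of the other features tested were called around At1NC046690, 14.5% around At1NC092960, 12.6% around At1NC034500 and 9.81% around At1NC021200. The share was 1.70% around At2NC028310 and 0.614% around At2NC000010. Its median was 11.2% over the 6 called members, 2.65% over the 54 tested and not called and 1.69% over the 27 not tested. Those medians pool chromosomes that differ in their share of calls. On chromosome 1 alone the median was 13.6% over the 4 called members and 4.99% over the 24 tested and not called, which ranged from 0.649% to 17.4%. The highest of these was At1NC090650, and 6 members of chromosome 1 that were not called lay above the 9.81% of At1NC021200. These are descriptions, and whether a member's call is tied to its region was not tested.

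The summed level of the 8 shoot markers was 46.8 to 77.7 CPM in wild type and 81.5 to 91.1 CPM in bzr1-D, without overlap. None of the 8 was called without the block, against 5.37% of all features in the genotype comparison averaged over Pi supplies. With the block 2 of the 8 were called in that comparison, both higher in bzr1-D, against 15.3% of all features. These were RCA, which encodes Rubisco activase, and PSBO2, which encodes a protein of the oxygen-evolving complex (adjusted p = 0.017 and 0.031 by edgeR). Not every marker had the direction of the sum. On low Pi the mean of LHCB1.1 was 2.87 CPM in wild type and 1.64 CPM in bzr1-D, that of LHCB2.1 was 1.11 and 1.03 CPM, that of CA1 was 0.649 and 0.306 CPM, and that of RBCS3B was 1.84 and 1.63 CPM. CA1 and RBCS3B were at 0 in the second bzr1-D library on low Pi, and RBCS3B in the second wild type library on adequate Pi. The part of shoot RNA in the genotype differences of the members was not tested.

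Genes that process, silence or degrade non-coding RNA were looked at in short lists. Averaged over Pi supplies, 5.37% of all features were called between genotypes, and 15.3% with the block. Calls in lists this short cannot be read as few or many against those shares. The list of RNA processing and decay held 14 genes, such as the exosome genes RRP4 and RRP41 and the exonuclease gene XRN4. Of these, 12 had a name that matched the reference. RRP6L1 and RRP6L2 did not match and were left out, although both had enough counts to be tested. Of the 12 matched genes, UPF1 was not found among the features of the table. The other 11 were tested, and 0 were called in any of the 7 comparisons. With the block ABH1, which encodes the large subunit of the nuclear cap-binding complex, was called higher in bzr1-D, with an averaged log2 fold change of 0.30 ± 0.058 (adjusted p = 0.0040 by edgeR). Of 9 small RNA pathway genes 8 were tested, and RDR2 was not found among the features of the table. NRPD1, which encodes the largest subunit of RNA polymerase IV, was lower in bzr1-D averaged over Pi supplies, with a log2 fold change of -0.62 ± 0.11 (adjusted p = 0.020 by edgeR, 0.0021 with the block), and it was called on low Pi with the block (adjusted p = 0.011). DCL2, which encodes a Dicer-like enzyme that cuts double-stranded RNA into small RNAs, was called higher in bzr1-D with the block only. Its log2 fold change with the block was 0.49 ± 0.10 on adequate Pi (adjusted p = 0.012 by edgeR, 0.13 without the block) and 0.34 ± 0.073 averaged (adjusted p = 0.0073, 0.078 without the block). None of the small RNA pathway genes was called for a response to low Pi.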

How the data were processed

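The authors deposited 1 table of whole-number read counts per feature for 8 libraries, with no normalization. HTSeq 0.6.1, DESeq2 1.2.8, TopHat2 2.0.11 and the build TAIR10 stand, without settings, in the submitters' processing notes. Reads were 50-base single reads per the labels' protocols. Groups came from the sample titles, as the strain and tissue values stand under each other's tag.

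The counts went into the quasi-likelihood test of edgeR 4.0.16 (R 4.3.3), with 1 coefficient per group over 8 libraries, TMM scaling and the default low-count filter (minimum count 10). p-values were adjusted by Benjamini-Hochberg over all 20262 features tested. The test script was checked on simulated counts, with changes only in well-counted features and no effect of the Exp number. That check does not cover counts as low as those of most members. CPM used TMM-scaled totals. Fold changes within 1 experiment used a prior count of 2 and have no test. Same-numbered libraries deviated together (correlation 0.290 to 0.643 over 6 pairs of groups), so the Exp number was taken to pair them in the fit with the block. The main fit leaves this pairing out, and calls, standard errors and p-values are from it unless the block is named. The biological coefficient of variation was 0.169 in the main fit and 0.0858 with the block. Chi-square per degree of freedom between replicates was 17.3 to 36.8, so none was a copy. Nothing says that replicates came from separate cultures beyond the label, so p-values measure the spread between these libraries. Bounds use 3 counts per library as the floor. Intervals and floors cover counting error only. Of the reference loci, 32940 matched table features, 98.6% of them inside the TAIR10.1 gene.

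Members, lists and tests were chosen with earlier results of these data known. Members were named where called in either fit, where among the 3 smallest unadjusted p-values of a comparison, among the 10 highest in mean CPM, or among the 5 highest per kb. Alternatives were DESeq2 1.42.0, limma-voom (limma 3.58.1), RLE scaling, 2 other low-count filters, fits of only the groups compared and leaving out each library. Sequences of the other 4 called members are not reported here.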

Additional observations from a re-analysis of the deposited data

How the results depend on the processing

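With the Exp number as a replicate block, the members called rose from 4 to 7 between genotypes at adequate Pi and from 3 to 8 at low Pi, and were 8 against 6 averaged. Over all features the block raised the share called from 1.99% to 7.40%, from 2.12% to 9.0% and from 5.37% to 15.3%. Fitting only the groups compared gave 2 at adequate Pi, from 49 members tested, with 1.52% of all features called. At low Pi, DESeq2 gave 5 and the fit with no filter gave 5, each with 87 members tested, while 3.07% of the features given an adjusted p by DESeq2 and 1.77% of all features with no filter were called. Leaving out 1 library gave 2 to 4 calls at adequate Pi, 2 to 3 at low Pi and 4 to 6 averaged. The 2 at adequate Pi came without either library of wild type or bzr1-D at adequate Pi or of bzr1-D at low Pi. The fitted log2 fold change of At1NC090650 at low Pi turned to 3.73 without the second wild type low Pi library, on counts of 0 against 1 and 2, and lay as low as -4.85 without another library. Over all the alternatives run, each of the 4 comparisons of Pi responses kept 0 members called. Among the alternative values of single members, 25 lost a call, 19 gained one, 1 turned and 464 did neither. The cause was not tested. Members near the threshold rest on a few counts per library, and 27 members could not be tested.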

Other observations

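The pattern of At1NC090650, at 20 or more counts in both wild type Exp 2 libraries and 3 or fewer in the other 6, was chosen after its values were seen and was then sought in the whole table. It was found in 4 features. These are At1NC090650, the pseudogene AT1G65485.1, which starts 802 bases from it, and the protein-coding genes AT3G48640 and AT3G03670. AT1G65485.1 had 29 and 23 counts in the wild type Exp 2 libraries and 0 to 2 in the others. AT3G48640 had 30 and 32, against 0 or 1. AT3G03670, a peroxidase family gene, had 55 and 30, against 0 to 2. The same pattern in the wild type Exp 1, bzr1-D Exp 1 or bzr1-D Exp 2 libraries was found in 0 features.

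At1NC040230, just outside the count threshold with 39 counts, was tested as well. It had 1 and 0 counts in wild type on adequate Pi, 0 and 0 on low Pi, 9 and 10 in bzr1-D on adequate Pi and 13 and 6 on low Pi.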
